A study of Mus musculus with 12 samples.

Results

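The genes described here are the uncoupling proteins Ucp1, Ucp2 and Ucp3 and the brown-fat type genes Cidea, Dio2 and Prdm16, in the extensor digitorum longus (EDL), a fast-twitch hindlimb muscle, of male mice. They were taken by gene symbol, 6 of 17752 genes in the expression table, and include genes known to be held down in fat tissue by RIP140, the nuclear receptor corepressor encoded by Nrip1. The 12 libraries came in 4 groups of 3, with genotypes labelled Ctrl (WT below) and Nrip1KO (strNrip1-/- below) and training labelled Sedentary or Trained. Trained mice had a running wheel for voluntary use for 8 weeks from 8 weeks of age, and sedentary mice did not. The study's methods state that wheels were taken away before any endpoint and that mice running too little were left out. The strNrip1-/- mice carried floxed Nrip1 alleles and a Cre recombinase driven by the muscle creatine kinase promoter, which acts in heart and skeletal muscle fibers and leaves Nrip1 in the other cells of the muscle. WT mice were littermates without Cre.

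Uncoupling proteins sit in the inner mitochondrial membrane. UCP1, the defining protein of brown and beige fat, lets protons return to the matrix without ATP synthesis, so that the energy is released as heat. UCP3 is the muscle form, is tied to fatty acid use and does not make muscle a heat organ in the way UCP1 does for brown fat. UCP2 is expressed broadly and strongly in immune cells. PRDM16 is a transcriptional regulator of brown and beige fat identity, DIO2 converts thyroxine to the active hormone T3 inside the cell, and CIDEA is a lipid droplet protein of brown fat. RIP140 is recruited by ligand-bound nuclear receptors, many of which bind sites built from AGGTCA.

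Ucp3 and Ucp2 are neighbors in the same orientation on chromosome 7. In GENCODE coordinates (GRCm38), Ucp3 spans chr7:100472990-100486432 and Ucp2 spans chr7:100493337-100502020, both on the plus strand, with 6905 bases from the end of Ucp3 to the start of Ucp2. Ucp1 spans chr8:83290352-83298452 on the plus strand. The 250 bases upstream of the RefSeq start (GRCm38.p6, plus strand) are shown for these 3 relatives because their levels in EDL were far apart. Capitals mark matches, on either strand, to AGGTCA (the core of nuclear receptor sites) or GGGCGG (a GC box); TATAAA and TGACGTCA (a cAMP response element) were also searched.
Ucp3, chr7:100472741-100472990: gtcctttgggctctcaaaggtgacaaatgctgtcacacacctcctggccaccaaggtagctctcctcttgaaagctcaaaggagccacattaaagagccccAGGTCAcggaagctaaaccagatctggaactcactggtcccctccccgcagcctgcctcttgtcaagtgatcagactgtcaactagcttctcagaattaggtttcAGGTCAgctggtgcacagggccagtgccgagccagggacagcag
Ucp2, chr7:100493108-100493357: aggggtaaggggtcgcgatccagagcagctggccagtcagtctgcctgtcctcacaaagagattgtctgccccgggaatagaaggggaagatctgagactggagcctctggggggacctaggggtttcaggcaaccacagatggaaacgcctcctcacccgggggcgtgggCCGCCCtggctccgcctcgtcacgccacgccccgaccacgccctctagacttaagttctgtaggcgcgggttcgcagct
Ucp1, chr8:83290098-83290347: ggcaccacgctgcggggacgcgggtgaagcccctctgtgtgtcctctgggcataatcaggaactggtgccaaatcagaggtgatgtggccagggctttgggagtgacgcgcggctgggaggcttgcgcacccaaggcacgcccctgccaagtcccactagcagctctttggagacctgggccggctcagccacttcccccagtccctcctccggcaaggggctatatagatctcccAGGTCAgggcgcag

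The Ucp3 window held 2 matches to AGGTCA, which began 149 and 44 bases upstream of the start. The Ucp1 window held 1, beginning 14 bases upstream, and the Ucp2 window held none but had 1 match to GGGCGG. Of 32851 mouse promoter windows of the same length, 14.0% held AGGTCA and 32.7% held GGGCGG. The same search of the Dio2 window found 1 TGACGTCA beginning 95 bases upstream and 1 TATAAA beginning 30 bases upstream, letters that 1.55% and 12.4% of all windows held. The Prdm16 window held 1 GGGCGG. These matches are letters in a window and were not tested for binding here.

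Values are FPKM, fragments per kilobase of transcript scaled to the depth of the library, so levels can be compared between genes. The low values fell on whole fragments when the depth was taken as 20050000 to 29200000 fragments a library, an estimate made from genes with 1 annotated transcript. The muscle fiber markers were high in every library, with no marker below 6582 FPKM. By genotype over both training states, 4 of the 8 were called lower and 0 higher (Acta1 -0.38, Myh4 -0.37, Mylpf -0.45 and Pvalb -0.38), beside 8.80% of all tested genes called. Most of the 8 are fast-fiber genes. Nrip1 itself went against the genotype labels. It was measured at 3.33 ± 0.689 FPKM (SD, n = 3) in sedentary libraries labelled WT and 15.5 ± 0.680 FPKM in sedentary libraries labelled strNrip1-/-, and at 3.62 ± 1.12 and 17.4 ± 3.02 FPKM in the trained ones. The value sums the whole gene and does not separate the deleted exon. Why it was higher in libraries labelled strNrip1-/-, and whether the labels match the genotypes, was not tested. Genotype is used below as the labels give it. The labels do not say which mouse each library came from. The study's methods state that this muscle came from a separate cohort of mice not used for other tests. P-values set a difference against the spread between these libraries.

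Ucp3 was by far the highest member. Its mean over the 12 libraries was 66.6 FPKM, above 94.2% of all genes in the table. Ucp2 followed at 9.84 FPKM, above 72.8% of genes, and Prdm16 at 1.84 FPKM, above 44.9%. Cidea averaged 0.804 FPKM, Ucp1 0.563 FPKM and Dio2 0.262 FPKM, above 33.9%, 29.6% and 20.8% of genes. The ratio of Ucp3 to Ucp2 ran from 2.30 to 12.05 across libraries, so the muscle form exceeded its neighbor in all 12.

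**Figure D1:**
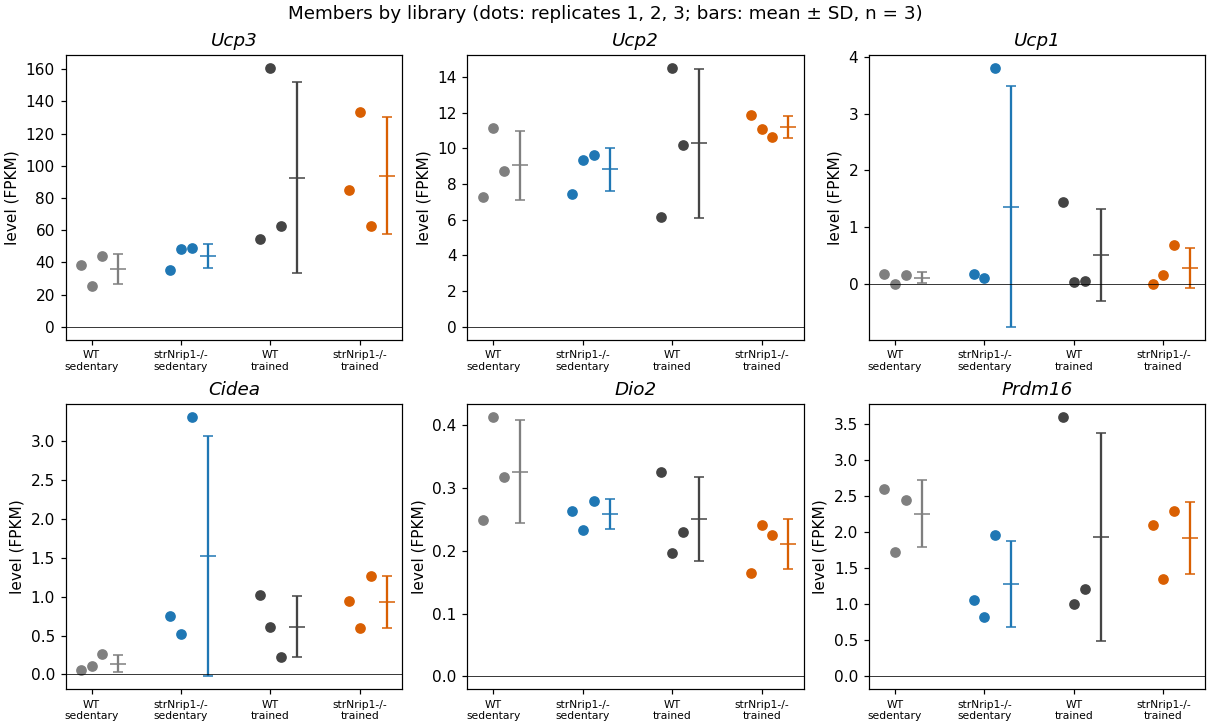
FPKM of each member in each library (dots, replicates 1 to 3 from left to right) with the group mean ± SD (bars, n = 3), on a linear axis of its own for each gene. Ucp3 was higher in all 6 trained libraries than in all 6 sedentary ones, while Ucp1 was high in single libraries of 3 groups, where its SD bars reach below 0.

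Ucp3 separated by training and overlapped between genotypes. In sedentary libraries labelled WT it was 38.6, 25.6 and 43.8 FPKM, and in sedentary libraries labelled strNrip1-/- it was 35.3, 48.0 and 48.9 FPKM. In trained libraries it was 54.4, 161 and 62.4 FPKM for WT and 84.9, 134 and 62.6 FPKM for strNrip1-/-. Every trained library lay above every sedentary one, a full separation upward that 48 of 12744 tested genes showed (0.377%).

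In the model across genes, trained exceeded sedentary by 1.21 ± 0.39 (SE) on the log2(FPKM + 0.5) scale in WT and by 1.03 ± 0.39 in strNrip1-/-. Neither passed the threshold, an adjusted p under 0.05 with a fold above 1.2 (limma, adjusted p = 0.464 and 0.341). At that threshold no gene at all was called for training in either genotype (0% of 12744), and 1061 genes (8.33%) in WT and 1544 (12.1%) in strNrip1-/- had an unadjusted p under 0.05. Rescaling to an equal sum called 150 genes in strNrip1-/-, and leaving out the first trained WT library called 30 in WT, with Ucp3 called in neither. Averaging the training difference over both genotypes, a contrast added after these values were seen, gave 1.12 ± 0.27 with a 95% interval of 0.51 to 1.72 (adjusted p = 0.138), where 15 genes were called (0.118%), a number that ran from 1 without the third sedentary WT or the second trained strNrip1-/- library to 189 without the first trained WT library. The training differences of the genotypes differed by -0.18 (interval -1.39 to 1.02, adjusted p = 0.966), and the interaction called 0 genes (0%), with 989 at an unadjusted p under 0.05.

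The genotype difference of Ucp3 was 0.31 in the sedentary state (interval -0.54 to 1.16, adjusted p = 0.791) and 0.12 in the trained state (interval -0.73 to 0.98, adjusted p = 0.903). The second trained WT library carried the highest Ucp3 value. Without it, the trained genotype difference was 0.61 and the WT training difference 0.72 (limma, adjusted p = 0.287 and 0.677).

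The genes whose pattern over the 12 libraries was most like that of Ucp3 were Pdk4 (Pearson r = 0.962 on the log2 scale), Plin4 (r = 0.926) and Zbtb16 (r = 0.923). Pdk4 encodes the kinase that shuts off pyruvate oxidation when fat is burned, Plin4 a lipid droplet coat protein and Zbtb16 a zinc finger transcription factor. Pdk4 ran from 24.8 FPKM in the second sedentary WT library, which also had the lowest Ucp3, to 234 FPKM in the second trained WT library and 338 FPKM in the second trained strNrip1-/- library. The same pair of libraries held the highest Plin4 (107 and 89.3 FPKM) and Zbtb16 (47.7 and 51.5 FPKM). The averaged training differences of Pdk4 and Plin4 missed the threshold, at 1.42 ± 0.35 and 0.65 ± 0.23 (limma, adjusted p = 0.138 and 0.273). That of Zbtb16 is not given here. The likeness is a description over libraries that share groups.

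The fatty acid genes that are commonly regulated with Ucp3 by PPAR and ERR receptors moved with genotype. Of 24 on the list, all tested, 12 were called higher in sedentary libraries labelled strNrip1-/- and 16 in trained ones, and 0 were called lower. Over all genes, 3.51% and 5.98% were called in these comparisons, and with single libraries left out 164 to 482 genes were called in place of 447 and 315 to 874 in place of 762. With the genotype difference averaged over both training states, 17 of 24 were called higher and the list's median difference was 0.59, against 8.80% of genes called and a median of 0.00 over all genes. Cell type markers differed in the same contrast, with 4 of 8 muscle fiber markers, a list of mostly fast-fiber genes, called lower. Endothelial markers were called higher for 3 of 10 (Cdh5, Tie1 and Vwf, median of the 10 at 0.22). All 8 tested fat cell markers were positive but not called (median 0.50). The part of cell types and of fiber type in the fatty acid genes was not tested. The sedentary count was 7 without the first sedentary WT library and 8 without the third. The trained count was 11 without the first trained WT library, without the third, or without the second trained strNrip1-/- library.

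The largest difference on the list was that of Fabp3, the muscle fatty acid binding protein, at 1.99 ± 0.10, from 325 to 532 FPKM in the 6 WT libraries and from 1312 to 1917 FPKM in the 6 labelled strNrip1-/-. Plin5, which couples lipid droplets to mitochondria, differed by 1.67 ± 0.18. The acyl-CoA thioesterases Acot1 and Acot2 differed by 0.81 ± 0.22 and 0.74 ± 0.16 (limma, adjusted p = 0.0404 and 0.0134). Acot1 was low and the genotypes overlapped, at 0.0884 to 0.594 FPKM in WT libraries and 0.474 to 2.39 FPKM in those labelled strNrip1-/-. It was called in neither training state alone (limma, adjusted p = 0.401 sedentary and 0.0859 trained). Averaged over both training states, Ucp3 differed by 0.22 (interval -0.39 to 0.82, limma adjusted p = 0.704), and Pdk4 by 0.61 ± 0.35 (adjusted p = 0.334). The Ucp3 interval holds both 0 and the list's median.

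**Figure D2:**
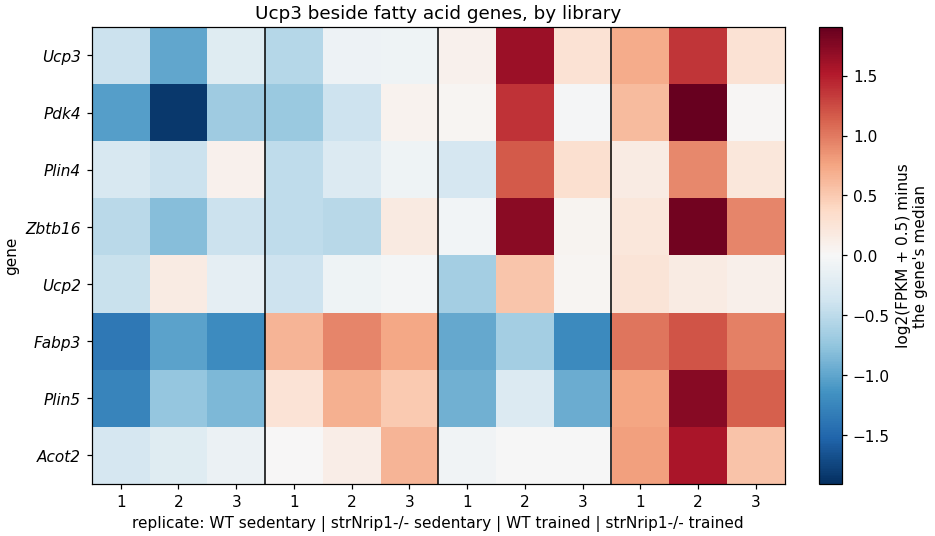
Level of each gene in each library as log2(FPKM + 0.5) minus that gene's median over the 12 libraries (color), with libraries in columns by group and replicate. Ucp3, Pdk4, Plin4 and Zbtb16 were highest in the second trained library of both genotypes. Fabp3, Plin5 and Acot2 separated by genotype. Within each genotype, Fabp3 and Plin5 were also highest in the second trained library.

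Ucp2 was nearly level across the 4 groups. It was 7.29, 11.1 and 8.72 FPKM in sedentary WT and 7.45, 9.36 and 9.65 FPKM in sedentary strNrip1-/- libraries. In the trained state it was 6.14, 14.5 and 10.2 FPKM in WT and 11.8, 11.1 and 10.7 FPKM in strNrip1-/-. The compared groups overlapped except that the 3 trained strNrip1-/- libraries lay above the 3 sedentary ones of that genotype, as they did for 9.4% of tested genes. The genotype difference over both training states was 0.09 (interval -0.30 to 0.47, limma adjusted p = 0.827) and the training difference 0.23 (interval -0.16 to 0.61, adjusted p = 0.673). These intervals leave room for a change of either sign.

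UCP2 is expressed strongly in immune cells, among others, so macrophage and leukocyte markers were read beside it. Which cells gave the Ucp2 values was not tested. Their summed level over 12 genes was 65.4 to 75.2 FPKM in sedentary WT and 63.1 to 96.4 in sedentary strNrip1-/- libraries. In trained libraries it was 61.2 to 76.9 FPKM in WT and 62.9 to 72.4 in strNrip1-/-. By genotype over both training states 0 of the 10 tested were called, beside 8.80% of all tested genes. In whole muscle, fewer cells of a type and less RNA per cell cannot be told apart. The genes most like Ucp2 were Ube2t, a ubiquitin-conjugating enzyme of DNA repair (r = 0.916), Sulf1, a heparan sulfate sulfatase (r = 0.875), and Hhipl1 (r = 0.871).

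The genes next to the Ucp3 and Ucp2 pair did not stand out. C2cd3, a centriole gene upstream of Ucp3, was at 1.56 to 2.96 FPKM with a genotype difference of 0.00 and a training difference of 0.07. Ppme1, a phosphatase methylesterase further upstream, was at 8.79 to 13.4 FPKM, with differences of 0.13 and 0.11. Dnajb13, which overlaps the end of Ucp2 on the minus strand, was at most 0.240 FPKM and was not tested. Coa4, a cytochrome oxidase assembly factor beyond it, was at 3.42 to 7.08 FPKM, with differences of 0.20 and -0.07. None of these passed the threshold. The study's methods do not state whether the libraries kept strand, so reads from the overlap of Ucp2 and Dnajb13 may not have been told apart.

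**Figure D3:**
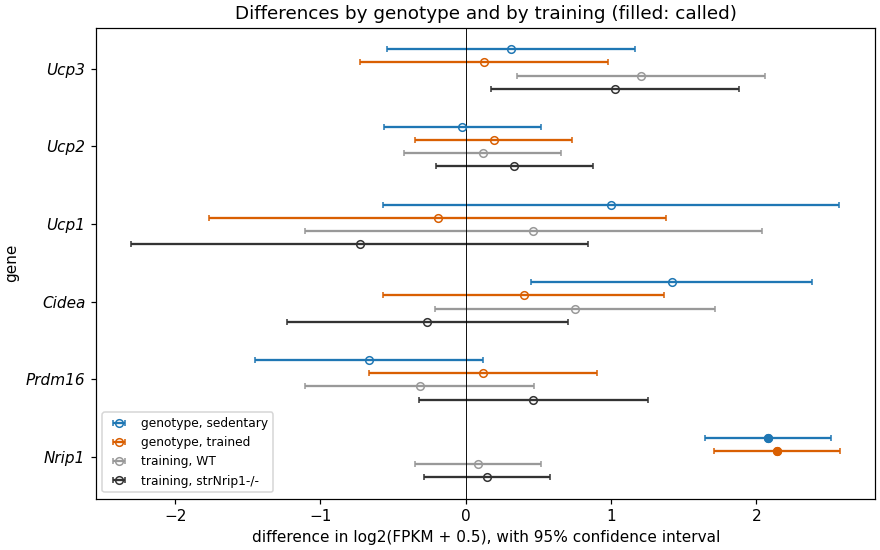
Difference in log2(FPKM + 0.5) by genotype (strNrip1-/- minus WT) and by training (trained minus sedentary) for the 5 members tested and Nrip1, with 95% confidence intervals; filled points passed the threshold. Of the genes drawn, Nrip1 alone was called, and the Ucp3 training intervals and the sedentary Cidea interval lie above 0 without a call.

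Of the 6 members, 5 reached the minimum mean of 0.5 FPKM, and Ucp1 did so through single libraries. Of those 5, 0 were called by genotype in sedentary or in trained libraries, or over both training states (limma), where 3.51%, 5.98% and 8.80% of all tested genes were called. Cidea had an unadjusted p under 0.05 in the sedentary state and over both states, 1 of 5 members each, as did 16.3% and 24.1% of all tested genes, and 0 of 5 members had one in the trained state (21.1% of genes). These shares say nothing particular about the members.

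Cidea (chromosome 18, 67343604 to 67367785, plus strand) had the largest genotype difference of the members. In sedentary WT libraries it was 0.0552, 0.103 and 0.260 FPKM, or 1, 2 and 4 fragments. In sedentary libraries labelled strNrip1-/- it was 0.747, 0.521 and 3.31 FPKM, or 13, 9 and 66 fragments. These 2 groups did not overlap, as was the case upward for 9.79% of tested genes.

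In trained libraries Cidea was 1.02, 0.606 and 0.225 FPKM in WT and 0.941, 0.599 and 1.26 FPKM in strNrip1-/-, and the groups overlapped. The trained WT fragments numbered 20, 12 and 5, and the trained strNrip1-/- fragments 21, 12 and 28. The sedentary difference was 1.42 ± 0.44 (interval 0.45 to 2.38, limma adjusted p = 0.118) and the trained difference 0.40 (interval -0.57 to 1.37, adjusted p = 0.670). The interaction was -1.02 (interval -2.38 to 0.35, adjusted p = 0.717).

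Over both training states the Cidea difference was 0.91 ± 0.31 (interval 0.23 to 1.59, limma adjusted p = 0.0909). It passed the threshold when the second sedentary strNrip1-/- library was left out, at 1.09 (adjusted p = 0.0476). Without the third sedentary strNrip1-/- library, the highest, the sedentary difference was 0.83 and the difference over both states 0.62 (limma, adjusted p = 0.221 and 0.0941). At such low levels the log2 scale with its added 0.5 understates the ratio. The difference follows the pseudocount, being 2.43 on the log2 scale with 0.1 added and 0.99 with 1 added in the sedentary comparison.

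Ucp1 was close to the floor of detection in most libraries. It was 0.165, 0 and 0.154 FPKM in sedentary WT, 0.170, 0.103 and 3.80 in sedentary strNrip1-/-, 1.45, 0.0299 and 0.0532 in trained WT and 0, 0.149 and 0.676 in trained strNrip1-/-. The detection floor of 3 fragments corresponded to 0.0799 to 0.116 FPKM, depending on the library, and 4 of 12 libraries lay under it. The third sedentary strNrip1-/- library held 128 of the 226 Ucp1 fragments in all 12, the first trained WT library 48 and the third trained strNrip1-/- library 25. High libraries therefore occurred in both genotypes and both training states.

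The Ucp1 genotype difference over both states was 0.40 (interval -0.71 to 1.51, limma adjusted p = 0.701) and the training difference -0.13 (interval -1.24 to 0.98, adjusted p = 0.958). Without the third sedentary strNrip1-/- library or the first trained WT library the mean of Ucp1 was under 0.5 FPKM, and it was not tested.

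The highest libraries in Ucp1 were also high in Cidea, but the first trained strNrip1-/- library had 21 fragments of Cidea and 0 of Ucp1. Their correlation over the 12 libraries was r = 0.799 on the log2 scale, a description that rests on the libraries named. The genes most like Ucp1 were Hao2, a peroxisomal hydroxyacid oxidase (r = 0.958), Alpl, the tissue-nonspecific alkaline phosphatase (r = 0.951), and Arhgef19 (r = 0.944). Alpl was 78.2 FPKM in the third sedentary strNrip1-/- library and 40.1 FPKM in the first trained WT library, against 4.76 to 9.70 FPKM in the other 10. Kcnk3, a potassium channel abundant in brown fat, was 5.47 and 1.61 FPKM in the same libraries and 0.244 to 1.21 FPKM elsewhere. The genes most like Cidea were Klhdc8a (r = 0.924), Tesc, a calcium-binding protein (r = 0.898), and Ermp1, an endoplasmic reticulum peptidase (r = 0.889).

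Fat cell markers were read beside these values. Adiponectin (Adipoq) was 10.3 FPKM in the third sedentary strNrip1-/- library, 7.71 in the third trained WT library and 6.58 in the third trained strNrip1-/- library, and at most 3.59 in the others. Perilipin 1 (Plin1) was 7.86, 5.30 and 6.32 FPKM in those 3 and at most 2.34 in the others. The first trained WT library, second highest in Ucp1, had 1.73 FPKM of Adipoq and 1.79 of Plin1, within the range of the low libraries, and the third trained WT library, high in Adipoq and Plin1, had 2 fragments of Ucp1. Fabp4 and Adrb3, also on the list, were 172 and 0.112 FPKM in that library, under their medians of 188 and 0.160. The summed level of the 10 fat cell markers was 174 to 218 FPKM in sedentary WT, 236 to 358 in sedentary strNrip1-/-, 212 to 256 in trained WT and 223 to 345 in trained strNrip1-/-, with none of the 10 at 0 in any library. Fabp4, which endothelium also expresses, made up most of that sum at 159 to 236 FPKM. Of the 8 tested, all 8 had positive differences in the sedentary genotype comparison, with a median difference of 0.93. Of these, 0 were called, beside 3.51% of all tested genes. The part of fat cells in the Cidea and Ucp1 values was not tested.

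**Figure D4:**
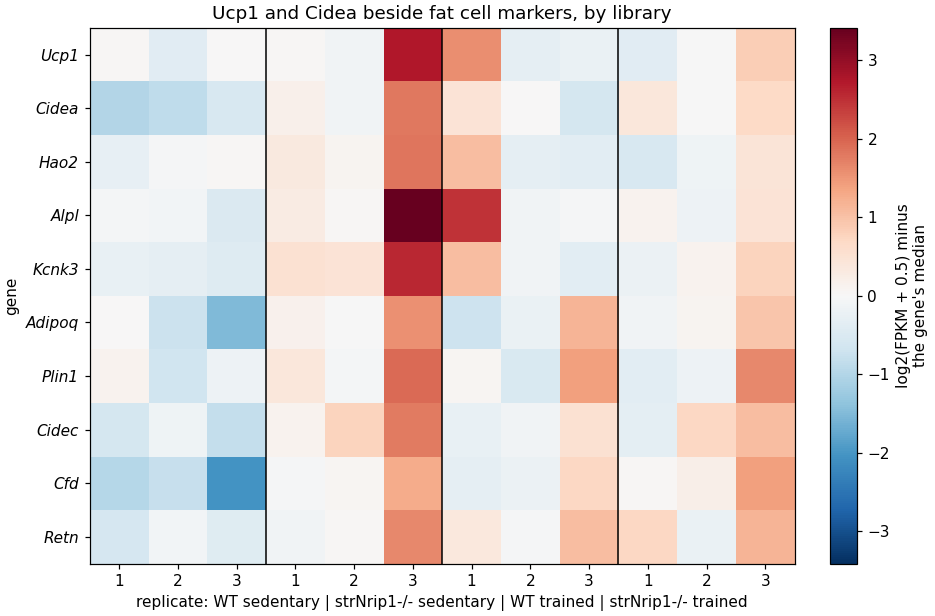
Level of each gene in each library as log2(FPKM + 0.5) minus that gene's median over the 12 libraries (color), with libraries in columns by group and replicate. Ucp1, Hao2, Alpl and Kcnk3 peak in the third sedentary strNrip1-/- and the first trained WT library, while Adipoq, Plin1, Cfd and Retn are highest in the third library of 3 groups and Cidec in the third strNrip1-/- library of both training states.

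Dio2 (chromosome 12, 90724552 to 90738438, minus strand) was low and even. It was 0.249, 0.413 and 0.317 FPKM in sedentary WT, 0.264, 0.233 and 0.279 in sedentary strNrip1-/-, 0.326, 0.197 and 0.230 in trained WT and 0.165, 0.241 and 0.225 in trained strNrip1-/-. Because its transcript of 5815 bases is long, these levels rest on an estimated 26 to 57 fragments a library, well above the floor of 3. The groups overlapped in each comparison. Its mean was under 0.5 FPKM, so it was tested by exact permutation of the labels on the FPKM scale. The mean of libraries labelled strNrip1-/- differed from WT by -0.0543 FPKM (two-sided exact permutation p = 0.13, 400 arrangements within training state) and that of trained libraries from sedentary ones by -0.0620 FPKM (exact permutation p = 0.075), where the smallest p this test can give is 0.005.

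Other genes of thyroid hormone supply and reception differed little by genotype. Of 14 listed, 11 were tested, with a median genotype difference of 0.02 over both training states. The only call among the 11, beside 8.80% of all tested genes, was Rxrg, a partner of the thyroid hormone receptor. Rxrg was lower at -0.59 ± 0.07 (limma adjusted p = 0.000335). It was 28.5 to 38.0 FPKM in the 6 WT libraries and 19.1 to 25.1 FPKM in the 6 labelled strNrip1-/-. The receptor gene Thra was at 39.0 to 51.3 FPKM, and the other deiodinases Dio1 and Dio3 had medians of 0.289 and 0.123 FPKM.

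Prdm16 (chromosome 4, 154316125 to 154636873, minus strand) varied among replicates as much as between groups. It was 2.59, 1.73 and 2.45 FPKM in sedentary WT and 1.06, 0.827 and 1.95 FPKM in sedentary strNrip1-/- libraries. In trained libraries it was 3.59, 1.0 and 1.21 FPKM in WT and 2.09, 1.34 and 2.29 FPKM in strNrip1-/-. The highest library was the first trained WT library, the one that was also second highest in Ucp1.

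The sedentary genotype difference of Prdm16 was -0.67 (interval -1.45 to 0.12, limma adjusted p = 0.399) and the trained difference 0.12 (interval -0.67 to 0.90, adjusted p = 0.900). The genes most like it were Msl2 (r = 0.914), Armc5 (r = 0.855) and Zfp93 (r = 0.831). Of 14 other PRDM family genes, 9 were tested and 1 was called by genotype over both states, Prdm4, lower at -0.26 ± 0.07 (adjusted p = 0.0419), beside 8.80% of all genes.

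The wider brown and beige fat program is given from a list of 40 regulators and effectors, of which 37 were in the table and 29 were tested. By genotype over both training states, 3 were called higher and 0 lower, with a median of 0.10, a share near the 8.80% called over all genes. They were the coactivator Ppargc1b (0.87 ± 0.20), its nuclear receptor partner Esrra (0.62 ± 0.05) and the thioesterase Acot11 (0.39 ± 0.10), of which the first 2 also belong to the mitochondrial program of muscle. Esrra was 65.1 to 74.5 FPKM in WT and 94.0 to 127 FPKM in strNrip1-/- libraries. Ppargc1a, the cold- and exercise-responsive coactivator, was 3.76 to 6.75 FPKM with a genotype difference of -0.16 and was not called. Its means were 4.07 ± 0.31 FPKM in sedentary WT and 4.31 ± 0.24 in sedentary strNrip1-/- libraries (SD, n = 3). In trained libraries they were 5.51 ± 1.08 FPKM in WT and 4.03 ± 0.33 in strNrip1-/-. Low genes on the list included Tmem26 (median 0.141 FPKM), Otop1 (0.222) and Adrb1 (0.0838). Cox7a1 and Cox8b, which mark brown fat among fat tissues and are also muscle isoforms, had medians of 1486 and 1708 FPKM.

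Heat-producing routes other than UCP1 were counted as well, by genotype over both training states. In that contrast 8.80% of all tested genes were called. Of 6 other mitochondrial carriers with reported proton leak, 5 were tested and 1 was called higher, the ADP/ATP carrier Slc25a4 (0.35 ± 0.09). Of 17 genes of calcium, creatine, glycerophosphate and lipid cycles, 4 were called higher and 2 lower. The higher ones included Dgat2, which makes triglyceride (1.12 ± 0.15), Pnpla2, which breaks it down (0.71 ± 0.08), and the mitochondrial creatine kinase Ckmt2 (0.69 ± 0.08). The lower ones were Mrln, an inhibitor of the SERCA calcium pump (-0.50 ± 0.08), and the glycerophosphate dehydrogenase Gpd2. Sarcolipin (Sln), the SERCA uncoupler of muscle heat production, was 1.095 to 5.35 FPKM and was not called. Of 9 other CIDE and lipid droplet genes, 1 was called higher, Fitm2 (0.35 ± 0.06), and Cidec differed by 0.91 without passing the threshold.

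**Figure D5:**
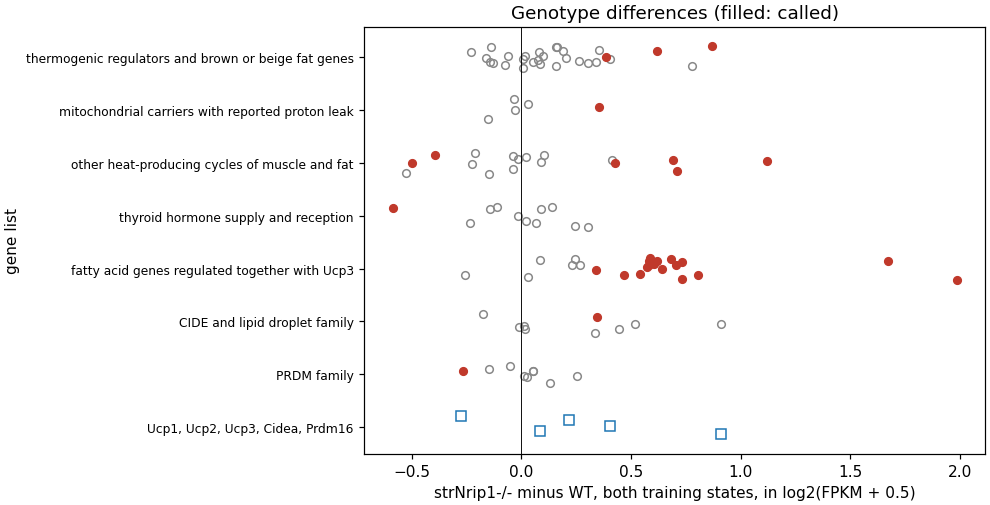
Genotype difference over both training states (strNrip1-/- minus WT) in log2(FPKM + 0.5) for the tested genes of each list and, in the last row, for the 5 members tested (squares); filled points passed the threshold. The fatty acid list sits mostly to the right of 0 with 17 of 24 filled, and no member is filled.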

How the data were processed

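RNA-seq of EDL was analyzed in 12 libraries, 3 per group. According to the labels and the study's methods, the authors prepared libraries with the NEBNext Ultra RNA kit, quantified reads with Salmon 1.10.2 against mm10 and tested them with DESeq2 1.44.0. The study's methods do not state whether strand was kept. The deposited table holds FPKM values per gene made by the authors. It also holds their fold changes and adjusted p-values, which were not used. FPKM is not a count, so log2(FPKM + 0.5) was tested with limma 3.58.1 in R 4.3.3 (4 group means, trended variance, Benjamini-Hochberg) on the 12744 genes averaging 0.5 FPKM or more. A gene was called at an adjusted p under 0.05 and a fold above 1.2 (interaction: adjusted p alone). The code was tested on simulated data. Dio2, under the minimum, was tested by exact permutation.

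Fragments were estimated from 98.9% to 99.7% of low values of single-transcript genes over 1500 bases falling within 0.15 of a whole number, with a fragment length of 350 bases taken (30.0% by chance). Of the members' own values in the 12 libraries, 11 for Ucp1, 8 for Cidea and 6 for Dio2 fell within that tolerance, and all were rounded. The Cidea transcript, at 1115 bases, is shorter than those used for the estimate. Fragment numbers of Cidea and Dio2 are therefore approximate. Floors cover counting error only, and the intervals of differences come from the spread between libraries. Coordinates are GENCODE M21 (GRCm38). Promoters are from RefSeq, which matched 5 of 6 members. Members and gene lists were chosen with earlier results of these data known. Named are all members, Nrip1, up to 4 called genes per list with the largest genotype difference, the 3 genes most like each tested member by Pearson r, and the neighbors of Ucp2 and Ucp3. Other genes named (Ppargc1a, Sln, Gpd2, Kcnk3, Tmem26, Otop1, Adrb1, Cox7a1, Cox8b, Cidec, Thra, Dio1, Dio3, Pdk4 and the fat cell markers) were picked from the lists after their values were seen. Alternatives were other pseudocounts, no minimum, only the compared libraries, other scalings, a replicate block and each library left out.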

Additional observations from a re-analysis of the deposited data

How the results depend on the processing

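The number of members called stayed at 0 in all 6 planned comparisons and in the added training contrast over both genotypes under other pseudocounts, no minimum, only the compared libraries (run where a comparison uses a subset), 3 scalings and the replicate block. With single libraries left out it ranged from 0 to 1 for genotype over both training states and stayed at 0 in the others. Same-numbered libraries did not all deviate together (r from -0.105 to 0.241 over 18 pairs, 5 over 0.1 against 3 of 36 pairs with other numbers, and 4 of 12 libraries closest to their own number), and the block gave 441 genes called in sedentary libraries against 447. The scale set the sign of small differences, since Ucp2 by genotype in sedentary libraries was 0.054 at an equal nuclear sum and the Ucp3 interaction was 0.035 at an equal sum. Directions that depended on single libraries, given as log2 ranges with each left out, were as follows. For Ucp1, which was not tested without either of its 2 highest libraries, genotype in trained libraries ranged from -0.54 to 0.075 and training over both genotypes from -0.38 to 0.029. For Ucp2, genotype ranged from -0.16 to 0.13 in sedentary and -0.12 to 0.47 in trained libraries and from -0.070 to 0.22 over both, training in WT from -0.16 to 0.43, and the interaction from -0.094 to 0.49. For Ucp3, genotype in trained libraries ranged from -0.17 to 0.61 and the interaction from -0.48 to 0.30. Training in strNrip1-/- for Cidea ranged from -0.63 to 0.32. For Prdm16, genotype in trained libraries ranged from -0.15 to 0.57 and training over both genotypes from -0.15 to 0.21. The Dio2 differences ranged from -0.0736 to -0.0326 FPKM by genotype (exact permutation p from 0.04 to 0.28, 0.04 without the first sedentary WT library) and from -0.0814 to -0.0404 FPKM by training (exact permutation p from 0.045 to 0.195, 0.045 without the first trained WT library). Over all genes, fitting only the compared libraries called 177 instead of 447 in the sedentary state and 443 instead of 762 in the trained state. The sedentary number was 164, 222 and 216 without sedentary WT libraries 1, 2 and 3 and 260 without sedentary strNrip1-/- library 1, and the trained number 389 and 386 without trained WT libraries 1 and 3 and 334 and 315 without trained strNrip1-/- libraries 2 and 3. Causes were not tested. Ucp1 lay under the floor of 3 fragments in 4 of 12 libraries and Cidea in 2.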
